A study of Mus musculus with 2 samples.

Results

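The 35 genes described here code for glycolytic enzymes, sugar and lactate transporters, oxygen sensors and targets of the hypoxia response. They were taken by symbol from a list that was chosen with earlier results of these data known. They make up 35 of the 32285 genes in the deposited tables. They comprise 15 glycolytic enzymes, 3 transporters, 3 genes of oxygen sensing and 14 hypoxia targets. All 35 symbols were found.

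The study used droplet-based single-cell RNA sequencing to ask how the immune cells of pancreatic tumors differ after treatment with cmExoaCD11b, exosomes that bear an antibody to CD11b and are loaded with cGAMP, which activates STING, and with mRNA for IL-12. Mice of the control library received PBS, and those of the treated library cmExoaCD11b. The dose in the study's treatment experiments was 5 µg of cGAMP per mouse. Each library pooled 3 mice, and cells were taken 48 h after treatment. The mice of the tumor model were male C57BL/6J, 5 to 6 weeks old when obtained. Tumors in both groups grew from K210 cells implanted in the pancreas, a line isolated from a pancreatic ductal adenocarcinoma of a genetically engineered mouse that carried Pdx1-Cre and Trp53 fl/fl. All tumors therefore stem from 1 cell line, and the dose and the number of doses that the mice of these libraries received are not given in the sources used here. CD11b is found on neutrophils, monocytes and macrophages, so the antibody does not single out any of them. With 1 library per treatment, no difference below has a replicate check, no test between treatments was possible, and mice within a pool cannot be separated.

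Glycolysis splits glucose into pyruvate through a chain of enzymes, and lactate dehydrogenase turns pyruvate into lactate where oxygen is short or flux is high. When oxygen falls, prolyl hydroxylases such as those of Egln1 and Egln3 cease to mark the HIF-1α protein for destruction, and the HIF dimer then induces glycolytic enzymes, glucose transporters and genes such as Vegfa and Bnip3. Hif1a itself is controlled mostly at the level of its protein, while Egln3 is both a sensor and a target of the pathway. Neutrophils draw most of their energy from glycolysis, and pancreatic tumors are known for poor perfusion.

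The HIF dimer is known to recognise a short core motif, so the promoters of the 35 genes were searched for ACGTG and GCGTG on both strands in the 250 bases before each RefSeq transcription start (GRCm38.p6). A window was found for 32 genes, and Slc2a3, Bnip3l and Ndrg1 had no entry. At least 1 of the motifs lay in a window of 29 of the 32 genes (90.6%), against 41.5% of 27025 genes with a window. ACGTG was found for 21 genes (65.6% against 18.5% of all genes), and GCGTG also for 21 (65.6% against 30.9%). Counted by window, of which some genes have several, 80.4% of 46 windows of the list and 38.6% of all 32851 windows held a match. The windows of the list were also richer in G and C, with a median of 63.8% against 52.4%, and the part of base composition in the motif counts was not tested. The genes were listed as glycolysis genes or parts of the hypoxia response, so their share with this motif is not independent of that choice. Tpi1, Gpi1 and Mif had neither motif in their windows. The windows of 4 genes are printed 5′ to 3′ on the strand of the gene, with capitals marking the motif on either strand, where CACGT and CACGC are the same motifs read from the opposite strand. Bnip3 and Egln3 are shown because they were lower in the treated library in each of the 4 large cell classes where they could be compared, Ldha because its first window held the motif at high density, and Hk3 because it holds the motif although its level hardly moved. Bnip3 lies at chr7:138909507-138909756 on the minus strand, Egln3 at chr12:54203875-54204124 on the minus strand, both Ldha windows on the plus strand at chr7:46845554-46845803 and chr7:46846832-46847081, and Hk3 at chr13:55021386-55021635 on the minus strand. The GENCODE vM21 annotation places no exon in these windows, apart from 13 bases of a retained-intron transcript of Bnip3.
Bnip3: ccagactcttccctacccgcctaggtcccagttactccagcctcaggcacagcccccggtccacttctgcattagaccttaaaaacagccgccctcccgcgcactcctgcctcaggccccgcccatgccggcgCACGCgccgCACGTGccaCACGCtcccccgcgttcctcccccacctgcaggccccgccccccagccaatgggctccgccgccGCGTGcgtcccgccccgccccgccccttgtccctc
Egln3: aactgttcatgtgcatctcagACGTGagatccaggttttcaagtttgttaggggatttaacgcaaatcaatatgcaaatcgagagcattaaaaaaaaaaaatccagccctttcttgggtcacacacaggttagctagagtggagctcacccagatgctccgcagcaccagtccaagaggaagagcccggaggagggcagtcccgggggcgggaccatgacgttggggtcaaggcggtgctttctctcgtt
Ldha, first start: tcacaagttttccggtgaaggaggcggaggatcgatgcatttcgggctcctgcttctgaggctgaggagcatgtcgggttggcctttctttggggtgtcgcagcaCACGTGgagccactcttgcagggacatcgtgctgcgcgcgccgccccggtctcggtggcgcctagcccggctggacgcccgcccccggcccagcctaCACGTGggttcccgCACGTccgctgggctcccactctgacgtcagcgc
Ldha, second start: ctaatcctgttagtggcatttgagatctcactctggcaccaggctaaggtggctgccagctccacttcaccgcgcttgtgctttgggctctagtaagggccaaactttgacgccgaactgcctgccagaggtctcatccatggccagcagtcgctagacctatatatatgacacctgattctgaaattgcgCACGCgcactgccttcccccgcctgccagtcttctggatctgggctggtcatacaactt
Hk3: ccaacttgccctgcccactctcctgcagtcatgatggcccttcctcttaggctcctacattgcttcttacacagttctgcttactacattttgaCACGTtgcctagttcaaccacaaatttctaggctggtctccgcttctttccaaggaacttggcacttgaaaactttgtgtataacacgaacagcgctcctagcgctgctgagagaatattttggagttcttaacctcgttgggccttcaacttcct
The Bnip3 window held 2 matches to ACGTG and 3 to GCGTG, where the palindrome CACGTG counts as 2 overlapping matches. The first Ldha window held 5 matches to ACGTG, among them 2 copies of CACGTG. Egln3 and Hk3 held 1 match each, although the levels of Egln3 and Hk3 behaved differently in what follows.

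After cell calling, filtering and removal of likely doublets, 6830 cells were kept in PBS and 7061 in cmExoaCD11b. Their median numbers of unique molecular identifiers (UMIs), each a tag of 1 captured RNA molecule, were 3468 and 4114. Cells were assigned to a class by UMIs of marker genes, none of them among the 35 genes, with thresholds set after the marker counts had been seen. The PBS library held 4511 neutrophils, 334 macrophages, 137 monocytes, 382 T cells, 214 B cells, 51 epithelial cells, 26 dendritic cells and 25 NK cells. The cmExoaCD11b library held 4054 neutrophils, 86 macrophages, 239 monocytes, 904 T cells, 288 B cells, 35 epithelial cells, 64 dendritic cells and 91 NK cells. Markers of several classes were found in 233 cells of PBS and 190 of cmExoaCD11b, and 917 and 1110 cells were assigned to no class. The markers of each class were highest in that class, which the gates on these markers largely set in advance. The B cell class also held plasma cell markers, at 6438 CPM in PBS and 14791 CPM in cmExoaCD11b. CPM is the number of UMIs per 1000000 UMIs of the class. The macrophages of cmExoaCD11b held 2730 CPM of erythroid markers against 62.1 CPM in PBS. The erythroid marker Hbb-bs was also higher in cmExoaCD11b in other classes. It was at 77.7 CPM in PBS and 322 CPM in cmExoaCD11b in neutrophils, and at 3.54 and 223 CPM in dendritic cells. The libraries shared 16 cell barcodes, and free RNA made up between 0.844% and 7.74% of UMIs in the classes and stages.

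Levels below are CPM, and ratios are those of cmExoaCD11b to PBS with exact 95% intervals that cover counting error only. A gene was compared where it had at least 50 UMIs over both libraries in a class, and was counted as lower or higher when its ratio was 1.5-fold or more from 1. Gapdh, Eno1, Aldoa and other glycolytic enzymes have near-identical processed copies in the mouse genome, so their levels are uncertain where reads fit several copies.

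In the PBS library the genes were mostly highest in the myeloid classes. Macrophages held the highest level for 17 of 35 genes, neutrophils for 9 and epithelial cells for 5. T cells were highest for 2 genes, and dendritic cells and monocytes for 1 each. In the cmExoaCD11b library epithelial cells were highest for 17 genes, macrophages for 11 and neutrophils for 5. The same class was highest in both libraries for 17 genes. Neutrophils stayed highest for Hk3, the hexokinase of myeloid cells, which had 131 and 130 CPM there against 1.39 and 7.98 CPM in T cells. Free RNA would give 2.21 and 3.44 CPM of Hk3 in T cells. The PBS value was not above this, while that of cmExoaCD11b was, with an interval of 5.53 to 11.2 CPM. T cells were highest in both libraries for Hif1a, with 348 CPM in PBS and 387 CPM in cmExoaCD11b. Dendritic cells were highest in both for Pfkp, the platelet form of phosphofructokinase, with 336 and 464 CPM. Monocytes followed macrophages in the order for Vegfa in both libraries. NK cells were lowest for 14 genes in PBS and 13 in cmExoaCD11b, B cells for 10 and 15, and dendritic cells for 9 and 1. NK cells were few, at 25 and 91 cells, and 0 UMIs allow up to 50.1 CPM in those of PBS. The lowest class of rare genes was therefore not resolved at this depth, and NK cells were not compared between libraries. Dendritic cells of both libraries had 0 UMIs of Ak4, a mitochondrial adenylate kinase, which allows up to 10.6 CPM in PBS and 3.004 CPM in cmExoaCD11b.

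**Figure D1:**
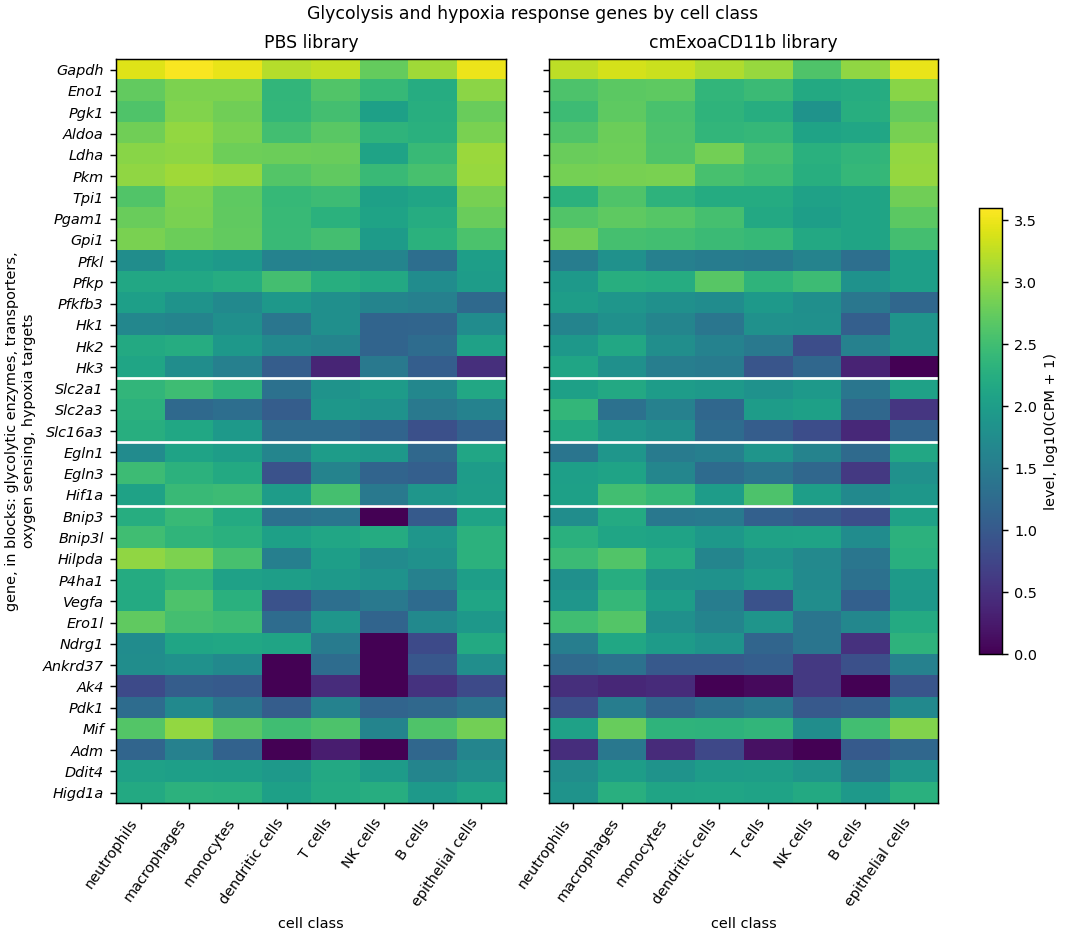
Level of each of the 35 genes (rows, in blocks by role) in 8 cell classes (columns) in the PBS library (left) and the cmExoaCD11b library (right). Color gives log10 of CPM plus 1. Hilpda in neutrophils goes from 1014 CPM in PBS to 283 CPM in cmExoaCD11b, where a brighter color marks a higher level.

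Neutrophils had the deepest data, with 31136532 UMIs in PBS and 38735355 in cmExoaCD11b. All 35 genes could be compared there, and 23 were lower in cmExoaCD11b, against 13.3% of all genes compared. None of the 35 was higher, against 8.72% of all genes. Their median ratio was 0.599, against 1.02 over all genes. At 2-fold, 15 genes were lower, against 6.45% of all genes. The share of neutrophils in each stage also differed between the libraries, and holding it constant left 5 genes lower, as given further below.

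The 14 hypoxia targets were all lower in neutrophils, with ratios between 0.140 and 0.614 and a median of 0.380. Hilpda, which blocks lipid breakdown and so favors lipid droplets, was at 1014 CPM in PBS and 283 CPM in cmExoaCD11b, a ratio of 0.279 (0.273 to 0.285). Bnip3, a mediator of mitophagy, was at 174 and 58.0 CPM, a ratio of 0.334 (0.318 to 0.351). Its relative Bnip3l was at 314 and 193 CPM, the highest ratio of the targets at 0.614. Mif, an inflammatory cytokine, was at 436 and 115 CPM, a ratio of 0.264 (0.255 to 0.273). Adm, the vasodilator peptide adrenomedullin, was at 14.2 and 1.99 CPM, a ratio of 0.140 (0.109 to 0.179). Vegfa, the angiogenic growth factor, was at 158 and 77.3 CPM, a ratio of 0.489 (0.467 to 0.511). Each of these genes was lower in cmExoaCD11b with an interval far from 1. P4ha1, a collagen prolyl hydroxylase subunit, was at 164 and 64.1 CPM. Pdk1, which restrains entry of pyruvate into mitochondria, was at 17.4 and 6.43 CPM. Ero1l, an oxidase of the endoplasmic reticulum, was at 518 and 317 CPM. Less change was thus seen in Ero1l, with a ratio of 0.613, than in P4ha1 and Pdk1, with 0.391 and 0.369. Ankrd37 went from 56.5 to 16.3 CPM, Higd1a from 153 to 69.1 CPM, Ddit4, an inhibitor of mTORC1, from 115 to 56.7 CPM, and Ndrg1 from 56.1 to 33.7 CPM. Ak4 was rare, at 5.49 and 2.01 CPM.

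Of the 15 glycolytic enzymes, 6 were lower in neutrophils, and the other 9 were within 1.5-fold. Tpi1, triosephosphate isomerase, had the lowest ratio, with 414 CPM in PBS and 196 CPM in cmExoaCD11b (ratio 0.474, 0.460 to 0.487). Hk2, the inducible hexokinase that commits glucose to the pathway, was at 154 and 82.7 CPM (ratio 0.538, 0.514 to 0.563). Pfkl and Pfkp, subunits of the rate-controlling phosphofructokinase, had ratios of 0.562 and 0.599. Aldoa and Ldha, with 0.611 and 0.656, were the other enzymes past the threshold. Gapdh lay just inside it, at 2649 and 1767 CPM with a ratio of 0.667. Eno1, enolase, was at 551 and 393 CPM, and Pgk1, phosphoglycerate kinase, at 408 and 292 CPM. Pgam1, phosphoglycerate mutase, was at 598 and 413 CPM, and Pkm at 1004 and 713 CPM. The enzymes of the lower pathway thus lay between 0.656 for Ldha and 0.716 for Pgk1, on either side of the threshold. Hk3 differed least, with a ratio of 0.990 (0.950 to 1.03). Pfkfb3, which makes the activator of phosphofructokinase, had 0.936 and Gpi1, glucose phosphate isomerase, 0.894.

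Among the transporters, Slc2a1, the basal glucose transporter GLUT1, went from 231 to 110 CPM, a ratio of 0.476. Slc2a3, the high-affinity transporter GLUT3, instead had 203 and 239 CPM, a ratio of 1.18 (1.14 to 1.22). The sugar carriers thus differed in direction in pooled neutrophils. Slc16a3, which exports lactate, had a ratio of 0.844. In the stages defined below, the 3 transporters had ratios from 0.497 to 0.818 in mature cells and 0.603 to 0.920 with no stage. Their ratios ran from 0.982 to 1.25 in immature, 0.796 to 1.26 in inflammatory, and 0.689 to 1.05 in mature and inflammatory cells. Among the oxygen sensors, Egln3 went from 290 to 108 CPM, a ratio of 0.374 (0.360 to 0.388), and Egln1 from 54.1 to 24.5 CPM, a ratio of 0.453. Hif1a transcripts were at 117 and 112 CPM, a ratio of 0.956 (0.914 to 0.999), within the threshold although the targets were lower.

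The share of neutrophils with a UMI moved with the levels when every cell was thinned to 1000 UMIs. A Hilpda UMI was found in 45.3% of 4379 PBS neutrophils and 19.3% of 3943 cmExoaCD11b neutrophils, after 132 and 111 shallower cells had been left out. Without thinning the shares were 64.2% and 39.0%, at median depths of 3462 and 4769 UMIs. In T cells, where Hilpda was low, the thinned shares were 8.44% and 5.70%, at median depths of 4732 and 3899 UMIs. The shares for Bnip3 in neutrophils were 21.2% and 9.79%. Those for Egln3 were 29.9% and 13.3%. Slc2a3 was found in 16.3% and 20.4% of neutrophils, and Hk3 in 11.5% and 10.6%. The fall was thus one of cells with a UMI as well as of summed counts for Hilpda, Bnip3 and Egln3, and not for Slc2a3 or Hk3.

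Neutrophils were divided into stages by marker UMIs, namely immature cells with Ltf, Camp and Ngp, mature cells with Retnlg and Mmp8, inflammatory cells with Ccl3, Ccl4, Tnf, Il1a and Icam1, cells with both of the latter sets, and cells of no stage. Immature cells made up 22.3% of neutrophils in PBS and 39.7% in cmExoaCD11b. Mature cells made up 11.1% and 21.7%, and mature and inflammatory cells 9.599% and 10.5%. Inflammatory cells made up 46.0% and 18.1%, and 11.0% and 9.99% had no stage. Immature cells also carried more UMIs each, so that they held 18236056 of the neutrophil UMIs in PBS and 29619915 in cmExoaCD11b.

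Most of the 35 genes were higher in inflammatory than in immature neutrophils within each library. In PBS 32 of 35 were at least 1.5-fold higher, against 42.6% of all genes, and 1 was lower, against 23.0%. In cmExoaCD11b 28 of 35 were higher, against 30.4% of all genes, and 1 was lower, against 35.4%. Ratios of the inflammatory to the immature level went from 3.10 for Bnip3l to 30.8 for Adm among the 14 hypoxia targets in PBS, and from 2.15 to 31.0 for the same genes in cmExoaCD11b. Hilpda in PBS was at 173 CPM in immature, 601 CPM in mature and 2845 CPM in inflammatory cells, and in cmExoaCD11b at 114, 207 and 1994 CPM. The inflammatory level of Hilpda was thus 16.5 times the immature level in PBS and 17.5 times in cmExoaCD11b. For Bnip3 the ratio was 19.5 in both libraries, and for P4ha1 it was 18.3 and 18.7. For Egln3 it was 17.5 and 14.6, and for Mif 18.4 and 15.5. The order of these stages was therefore kept in both libraries for these targets. Among glycolytic enzymes the ratios were 1.93 and 1.35 for Gapdh, 2.54 and 2.11 for Ldha, 6.98 and 6.14 for Pfkl and 8.15 and 6.64 for Hk2, so the ranges of enzymes and targets overlapped. Gpi1 was the gene lower in inflammatory cells in both libraries, with ratios of 0.548 and 0.444. Slc2a3 and Hk3 were within 1.5-fold, and Slc2a3 was highest in mature cells, with 503 CPM in PBS and 405 CPM in cmExoaCD11b. Slc2a1 behaved otherwise, with 52.1 CPM in immature and 518 CPM in inflammatory cells of PBS.

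**Figure D2:**
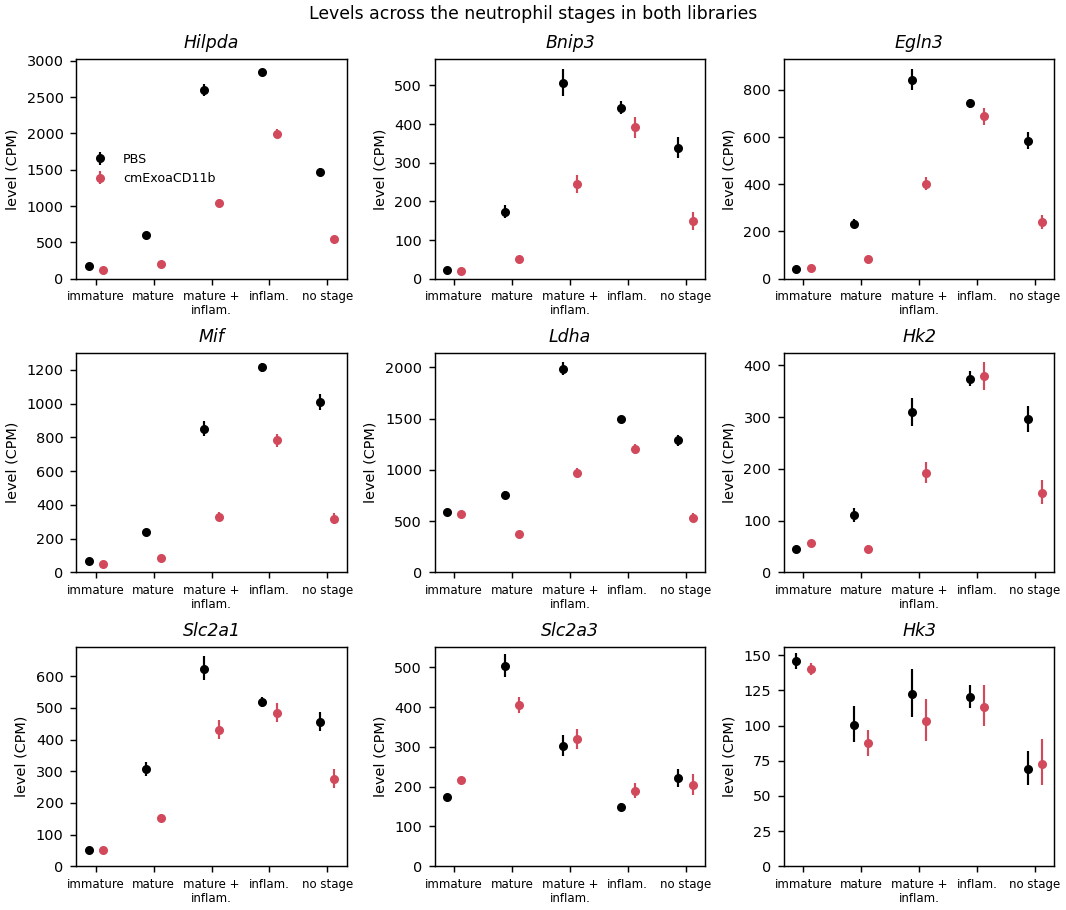
Levels in CPM (vertical axes, each from 0) of 9 genes in 5 neutrophil stages for the PBS library (black) and the cmExoaCD11b library (red), with exact 95% Poisson intervals that cover counting error only. Hilpda, Bnip3, Egln3 and Mif are near the bottom in immature cells and high in both inflammatory stages, where the libraries differ most in mature and inflammatory cells. Slc2a3 peaks in mature cells.

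The libraries were then compared within each stage, and whether the ratios differ between stages was not tested. In immature neutrophils 1 of 33 genes compared was lower in cmExoaCD11b, against 2.36% of all genes, and 0 were higher, against 12.6%. The lower gene was Hilpda, at 173 and 114 CPM with a ratio of 0.658. The median ratio in immature cells was 0.973 over the genes of the list and 1.13 over all genes. In mature neutrophils 24 of 33 were lower, against 6.07% of all genes, with a median ratio of 0.508 against 1.096 over all genes. Bnip3 there was at 174 CPM in PBS and 50.4 CPM in cmExoaCD11b, and Tpi1 at 308 and 109 CPM. Ldha was at 753 and 376 CPM in mature cells, and Hk2 at 111 and 46.1 CPM. In mature cells 11 of 15 enzymes, 10 of 12 targets and 2 of 3 genes of oxygen sensing were thus lower. Vegfa and Ndrg1 were compared and were not among the lower targets, and Hif1a was at 208 and 231 CPM. The erythroid marker Hbb-bs was at 20.2 CPM in the mature cells of PBS and 693 CPM in those of cmExoaCD11b. The part of erythroid RNA in these ratios was not tested. In mature and inflammatory cells 24 of 34 were lower, against 11.9% of all genes, with a median ratio of 0.551 against 1.02. Mif was at 852 and 330 CPM there, and Egln3 at 843 and 402 CPM. Of cells with no stage, 24 of 33 genes were lower, against 18.9% of all genes.

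In inflammatory neutrophils 7 of 35 genes were lower in cmExoaCD11b, against 22.2% of all genes, so that their share was close to the background. None was higher, against 9.45%. The 35 genes had a median ratio of 0.806 and all genes one of 0.902. The lower genes were Gapdh, Aldoa, Pkm, Egln1, Ndrg1, Mif and Adm. Gapdh was at 3863 CPM in PBS and 2350 CPM in cmExoaCD11b, and Mif at 1216 and 783 CPM. Bnip3, at 443 and 392 CPM, and Egln3, at 743 and 687 CPM, were within 1.5-fold in these cells, as was Hk2 with 374 and 379 CPM. Ero1l was at 1061 and 1241 CPM, and Pfkfb3 had the highest ratio of the list with 1.48.

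When the levels of the cmExoaCD11b stages were combined in the PBS proportions of UMIs, a comparison added after the data had been seen, 5 of 35 genes were lower in neutrophils, against 7.01% of all genes, and 0 were higher, against 8.77%. The 5 were Adm with a ratio of 0.352, Mif with 0.570, Hilpda with 0.611, Egln1 with 0.615 and Aldoa with 0.665. The ratio of Bnip3 was then 0.724 and that of Egln3 0.775, where the pooled cells had 0.334 and 0.374. The median ratio of the 35 genes was 0.775 against 1.03 over all genes. Most of the genes lower in pooled neutrophils were thus within the threshold once the proportions of the stages were equal. The stages rest on marker levels that also differed between the libraries. In pooled neutrophils Ccl3 was at 2349 CPM in PBS and 869 CPM in cmExoaCD11b, and Ccl4 at 841 and 487 CPM. In empty droplets Ccl3 was at 2207 and 813 CPM. The part of these levels, or of free RNA, in the stage proportions was not tested. With cells called by the ranked cut-off on UMIs alone, which kept 1282 and 1652 neutrophils, 11 genes were lower in pooled neutrophils. The share of all genes lower under that cut-off is not given here, so the count has no background beside it.

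**Figure D3:**
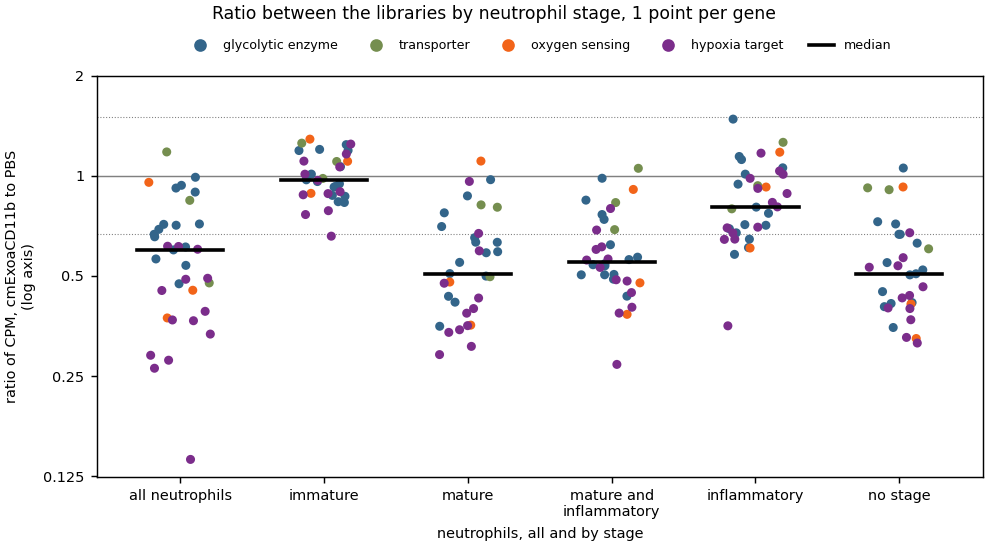
Ratio of cmExoaCD11b to PBS (log axis) for each gene with at least 50 UMIs, in all neutrophils and in 5 stages, colored by role, with the median of the genes as a bar. The solid line marks a ratio of 1 and the dotted lines 1.5-fold. The median is 0.973 in immature, 0.508 in mature and 0.806 in inflammatory cells.

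Cells in which Vegfa was seen were set beside the other neutrophils to ask whether the genes were found in the same cells. Cells were thinned to 1000 UMIs, which left 776 cells with and 3603 without a Vegfa UMI in PBS, and 376 and 3567 in cmExoaCD11b. In PBS 12 of 33 other genes of the list were at least 1.5-fold higher in cells with Vegfa, against 11.0% of all genes, and in cmExoaCD11b 20 of 32, against 14.4%. None was lower in such cells, against 11.0% and 16.7% of all genes. Bnip3 was at 567 CPM with and 302 CPM without a Vegfa UMI in PBS, a ratio of 1.88 (1.68 to 2.10). In cmExoaCD11b Bnip3 was at 354 and 123 CPM, a ratio of 2.88 (2.35 to 3.51). Hilpda had ratios of 1.74 and 2.76, and P4ha1 1.55 and 3.35. Mif had 1.499 and 2.88, and Egln3 1.62 and 2.37. These targets were thus higher where Vegfa was seen in both libraries. Gpi1, with 0.996 and 1.01, and Slc2a3, with 1.04 and 1.03, did not move with Vegfa in either library. The split also followed the stage. Within inflammatory neutrophils alone, an alternative added after the data had been seen, 2 of 33 genes were higher in PBS, against 3.72% of all genes, and 9 of 29 in cmExoaCD11b, against 8.85%. There 0 were lower in either library, against 5.35% and 12.6%. A Vegfa UMI was found in 26.4% of thinned inflammatory cells in PBS and 18.0% in cmExoaCD11b.

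**Figure D4:**
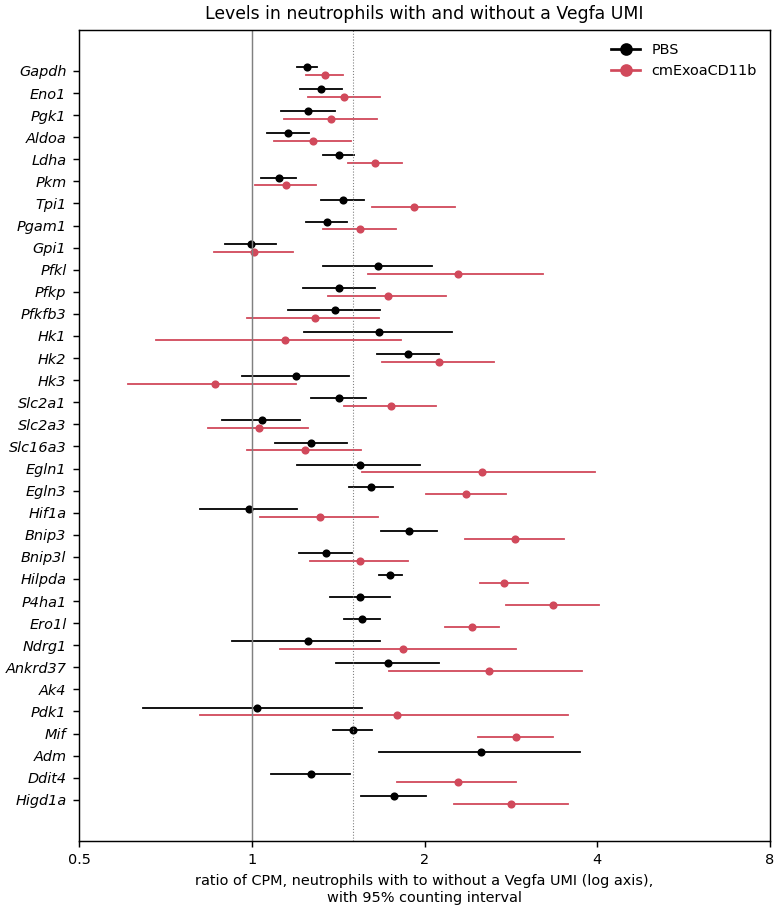
Ratio of the level in neutrophils with a Vegfa UMI to that in neutrophils without one (log axis), for each gene with at least 50 UMIs over both groups of cells, in PBS (black) and cmExoaCD11b (red), with 95% counting intervals. The dotted line marks 1.5-fold. Bnip3, at 1.88 and 2.88, and P4ha1, at 1.55 and 3.35, lie to the right of it, and Gpi1 lies on 1.

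Macrophages had a lower level in cmExoaCD11b for 20 of 34 genes compared, against 11.8% of all genes, and a higher level for 1, against 12.7%. The genes of the list had a median ratio of 0.639 and all genes one of 1.03. At 2-fold 2 genes were lower, against 4.77% of all genes, and 0 higher, against 3.88%. Of the 15 glycolytic enzymes 9 were lower. Gapdh was at 3616 CPM in PBS and 2303 CPM in cmExoaCD11b, a ratio of 0.637 (0.604 to 0.671). Tpi1 was at 785 and 412 CPM, a ratio of 0.525 (0.462 to 0.593). Pkm, the pyruvate kinase of most tissues, was at 1218 and 724 CPM. The 9 lower enzymes had ratios from 0.525 for Tpi1 to 0.649 for Ldha, while Pgam1, Pfkp and Pfkfb3 were within the threshold. Slc2a1 was at 305 and 147 CPM, and Slc16a3 at 138 and 75.8 CPM, while Slc2a3 was rare in macrophages, with 61 and 14 UMIs. Of the 13 hypoxia targets compared, 7 were lower, among them Pdk1 with an interval that included 1 (0.400 to 1.02). Ankrd37 had the lowest ratio at 0.318, on 250 and 14 UMIs. Hilpda was at 765 and 424 CPM, a ratio of 0.554 (0.489 to 0.626), and Vegfa at 394 and 253 CPM, a ratio of 0.641. Ero1l ran against them at 336 and 438 CPM, a ratio of 1.30 (1.14 to 1.48), which is within the threshold. The higher gene was Hk1, the hexokinase found in most cells, at 40.9 and 62.4 CPM with a ratio of 1.53 (1.06 to 2.16) on 156 and 42 UMIs, and its ratio was 1.41 without doublet removal. Ndrg1 and Ddit4 had ratios of 1.06 and 0.957. Egln1 and Egln3 had ratios of 0.630 and 0.590, and Hif1a 1.17. Ak4 had 40 UMIs in PBS and 1 in cmExoaCD11b, too few to be compared. The macrophage markers summed to 24590 CPM in PBS and 14589 CPM in cmExoaCD11b, beside the erythroid RNA given above, and the part of either in these ratios was not tested.

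In monocytes 20 of 33 genes compared were lower in cmExoaCD11b, against 7.33% of all genes, and 1 was higher, against 12.1%. Over the genes of the list the median ratio was 0.628, and over all genes 1.04. At 2-fold 10 genes were lower, against 2.62% of all genes, and 0 higher, against 4.48%. Bnip3 was at 159 CPM in PBS and 26.4 CPM in cmExoaCD11b, a ratio of 0.166 (0.126 to 0.216). Ero1l was at 288 and 62.1 CPM, a ratio of 0.216 (0.180 to 0.257), where macrophages had a ratio above 1. Egln3 was at 154 and 43.3 CPM, a ratio of 0.281 (0.224 to 0.350). Egln1, the main oxygen sensor of most cells, had a ratio of 0.298 (0.226 to 0.391). The sensors and targets were thus lower together, while Hif1a, at 290 and 250 CPM, was within the threshold. Of the 12 targets compared 10 were lower, and the other 2 were Ndrg1 and Ddit4, with ratios of 0.680 and 0.675 just inside the threshold. Ak4 and Adm had too few UMIs. Of the enzymes 7 of 15 were lower, among them Tpi1 with 0.416, Pfkl with 0.417 and Aldoa with 0.516. Slc2a1 was at 213 and 96.8 CPM. Slc2a3 was the higher gene, at 19.2 and 36.8 CPM with a ratio of 1.92 (1.27 to 2.97) on 31 and 102 UMIs, and its ratio was 1.48 when each cell was weighted equally. Neutrophil markers summed to 7730 CPM in the monocytes of PBS and 10906 CPM in those of cmExoaCD11b, and their part in these ratios was not tested.

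**Figure D5:**
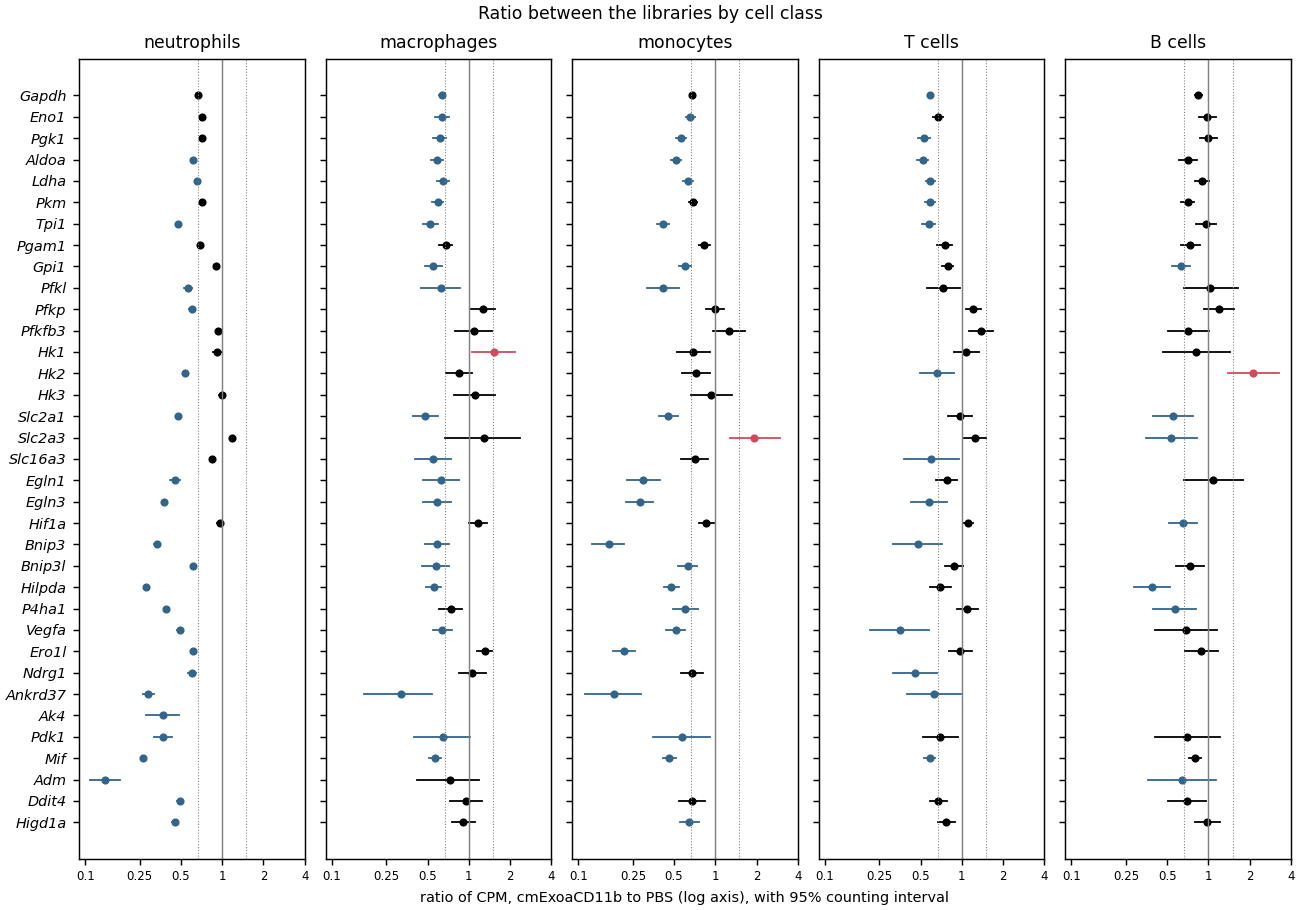
Ratio of cmExoaCD11b to PBS (log axis) for each gene with at least 50 UMIs over both libraries in 5 cell classes, with 95% counting intervals. Blue points are at least 1.5-fold lower, red points at least 1.5-fold higher, and dotted lines mark the threshold. Bnip3 lies at 0.334 in neutrophils and 0.166 in monocytes, and the red points are Hk1 in macrophages, Slc2a3 in monocytes and Hk2 in B cells.

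In T cells 14 of 32 genes compared were lower in cmExoaCD11b, against 6.82% of all genes, and 0 were higher, against 8.62%. Their median ratio was 0.683, against 1.02 over all genes, and 3 were lower at 2-fold, against 1.40%. Of the 14 glycolytic enzymes compared 7 were lower, namely Gapdh, Pgk1, Aldoa, Ldha, Pkm, Tpi1 and Hk2. Gapdh was at 1854 CPM in PBS and 1093 CPM in cmExoaCD11b, a ratio of 0.590 (0.565 to 0.615). Aldoa was at 474 and 245 CPM, a ratio of 0.517 (0.474 to 0.564). Ldha was at 596 and 352 CPM, and Pgk1 had a ratio of 0.531. Pfkp and Pfkfb3 ran the other way within the threshold, with ratios of 1.21 and 1.38. Of 12 hypoxia targets compared 5 were lower in cmExoaCD11b, namely Bnip3, Vegfa, Ndrg1, Ankrd37 and Mif. Bnip3 had a ratio of 0.477 (0.316 to 0.719) and Ndrg1 one of 0.453 (0.313 to 0.653). Hk3, Ak4 and Adm had too few UMIs to be compared. Mif, which lymphocytes also make, was at 396 and 231 CPM, a ratio of 0.583. Vegfa was at 19.9 and 7.04 CPM, of which free RNA would give 5.29 and 3.40 CPM. Hilpda was at 104 and 72.6 CPM, beside 24.5 and 10.4 CPM of free RNA. With cells called by the ranked cut-off alone, which kept 103 and 98 T cells, 5 genes were lower and Pfkfb3 was higher at a ratio of 1.76. These counts likewise have no share of all genes beside them.

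B cells held few UMIs of these genes, and 28 could be compared. Of these 7 were lower in cmExoaCD11b, against 13% of all genes, and 1 was higher, against 7.25%. A median ratio of 0.733 over the genes of the list stood beside 0.906 over all genes. At 2-fold 1 gene was lower, Hilpda, against 2.87% of all genes. Hk2 was the higher gene, at 17.9 CPM in PBS and 37.6 CPM in cmExoaCD11b, a ratio of 2.11 (1.40 to 3.26) on 30 and 115 UMIs. Its ratio was between 1.97 and 2.32 under the alternatives tried. Slc2a1 was at 44.7 and 24.5 CPM, and Slc2a3 at 28.0 and 15.1 CPM, so both glucose carriers were lower. Hilpda was at 64.4 and 24.9 CPM, of which free RNA would give 20.7 and 4.44 CPM. Hif1a was at 77.5 and 50.4 CPM with a ratio of 0.651 (0.512 to 0.828), and it was within the threshold under several alternatives, with 0.718 under median-ratio scaling, 0.799 with equal weight per cell and 0.678 without doublet removal. Gapdh, Eno1, Pgk1 and Ldha had ratios between 0.846 and 0.999. Adm was counted as lower with an interval that included 1. Hk3, Slc16a3, Bnip3, Egln3, Ndrg1, Ankrd37 and Ak4 had too few UMIs. Plasma cell markers were higher in the B cell class of cmExoaCD11b, as given above, and their part in these ratios was not tested.

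Across neutrophils, macrophages, monocytes, T cells and B cells, 10 genes were lower in 4 classes. This is 10 of the 32 genes of the list that could be compared in 4 or more classes (31.2%), against 0.888% of the 6980 such genes overall. They were Aldoa, Ldha, Tpi1, Slc2a1, Bnip3, Hilpda, Egln3, Vegfa, Ankrd37 and Mif, of which Bnip3, Egln3 and Ankrd37 could be compared in 4 classes. Another 7 were lower in 3 classes, 9 in 2 and 5 in 1. Pgam1, Pfkfb3, Hk1 and Hk3 were lower in 0 of the classes where they could be compared. The classes share the libraries, so these counts are not separate observations of the treatment.

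Of 31 genes compared in epithelial cells, with 51 and 35 cells, 5 were lower, which is 16.1% beside 14.4% of all genes, and 2 were higher, which is 6.45% beside 5.02%. Median ratios were 0.950 for the genes of the list and 0.928 for all genes. Gapdh was at 3079 CPM in PBS and 3023 CPM in cmExoaCD11b, a ratio of 0.982 (0.933 to 1.03). Hilpda was at 201 and 183 CPM, and Bnip3 at 123 and 115 CPM. The levels of these genes were thus close in the keratin-expressing cells of both libraries. Ero1l was at 81.4 and 158 CPM, a ratio of 1.94 (1.49 to 2.52), and Pdk1 at 23.1 and 49.4 CPM, a ratio of 2.14 (1.31 to 3.52). Adm was at 42.1 and 14.7 CPM, a ratio of 0.349, and Vegfa at 130 and 81.5 CPM, a ratio of 0.629. Slc2a3 was counted 57 times in PBS and 2 times in cmExoaCD11b. Whether the ratios of epithelial cells and those of the immune classes differ was not tested.

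Dendritic cells, with 26 and 64 cells, allowed 21 genes to be compared. Of these 3 were lower (14.3%), against 10.7% of all genes, and 1 was higher (4.76%), against 18.2%. The lower genes were Tpi1, P4ha1 and Ndrg1, with ratios of 0.632, 0.664 and 0.558, and the interval of P4ha1 included 1 (0.424 to 1.06). Slc2a1 was the higher gene, at 21.2 and 86.1 CPM, a ratio of 4.06 (1.79 to 11.4) that rests on 6 and 86 UMIs. Gapdh was at 1592 and 1492 CPM in dendritic cells.

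Other genes of the same pathways were read from lists chosen beside the 35. Of 18 further hypoxia targets 12 could be compared in neutrophils. Of these 5 were lower in cmExoaCD11b, against 13.3% of all genes, and 0 higher, against 8.72%. Fam162a, a mitochondrial protein, was at 234 and 86.9 CPM, a ratio of 0.371, and Bhlhe40, a transcriptional repressor, at 198 and 73.9 CPM, a ratio of 0.374. Kdm4b, Pgf and Nos2 were also lower. Plin2, the coat protein of lipid droplets, was at 907 and 698 CPM, within the threshold where Hilpda was not. In monocytes 7 of 10 such targets were lower, against 7.33% of all genes, among them Gys1, glycogen synthase, at 37.8 and 10.1 CPM. In macrophages 4 of 12 were lower, against 11.8% of all genes. In T cells 1 of 9 was lower, against 6.82%, and in B cells 2 of 9, against 13%. The median ratio of the further targets was 0.714 in neutrophils, 0.756 in macrophages, 0.602 in monocytes, 1.02 in T cells and 0.782 in B cells. Over all genes the medians were 1.02, 1.03, 1.04, 1.02 and 0.906 in the same order. Within stages 5 of 11 were lower in mature cells, against 6.07% of all genes. In immature cells 0 were lower, against 2.36%, and 3 higher, against 12.6%. In inflammatory cells 0 were lower, against 22.2%, and 1 higher, against 9.45%. Of 14 further glycolysis genes 10 could be compared in neutrophils. Of these 3 were higher, namely Pfkfb1, Pfkfb2 and Pfkfb4, against 8.72% of all genes, while Aldoc and Pgm1 were lower, against 13.3%. Pfkfb4 was at 44.8 and 74.9 CPM, a ratio of 1.67 (1.57 to 1.78). Of 6 genes that control HIF, 4 could be compared in pooled neutrophils. Of these 0 were lower, against 13.3% of all genes, and 0 higher, against 8.72%. Vhl, which marks HIF-1α for destruction, was at 20.9 and 14.5 CPM, and Arnt, the dimer partner of HIF-1α, at 47.2 and 49.4 CPM. Within stages Vhl was lower in mature cells, with a ratio of 0.559 (0.328 to 0.949), 1 of 3 genes compared, against 6.07% of all genes. It was also lower in mature and inflammatory cells, 1 of 2, against 11.9%. Egln2 was lower in inflammatory cells, 1 of 4, against 22.2%. Of 7 genes of the pentose phosphate pathway, which branches from glycolysis, 1 was higher in pooled neutrophils, against 8.72% of all genes. None was lower, against 13.3%. The higher gene was G6pdx, at 90.9 and 142 CPM with a ratio of 1.56 (1.49 to 1.63). In mature cells G6pdx was at 75.3 and 72.4 CPM, a ratio of 0.962 (0.796 to 1.17). Of the 7 there Rpia and Rpe were higher, against 17.1% of all genes, and Pgd was lower, against 6.07%. In immature cells 0 of 7 were higher, against 12.6%, and 0 lower, against 2.36%. G6pdx was higher in inflammatory cells, 1 of 7, against 9.45%, where Tkt was lower, against 22.2%. In mature and inflammatory cells G6pdx and Taldo1 were higher, 2 of 6, against 15.3% of all genes. With no stage G6pdx was higher, 1 of 6, against 15.4%. In macrophages and monocytes G6pdx was also higher, 1 of 6 and 1 of 7 genes compared, against 12.7% and 12.1% of all genes. Its ratios there were 1.52 (0.946 to 2.36) and 1.63 (1.23 to 2.18). In macrophages Egln2, a further prolyl hydroxylase, was higher with 1.55 (0.942 to 2.45), 1 of 3 HIF genes compared, against 12.7% of all genes. The macrophage intervals of G6pdx and Egln2 both include 1. For the HIF genes in monocytes, T cells and B cells 0 of 3, 5 and 4 were past the threshold.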

How the data were processed

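Tumor-infiltrating cells were sequenced as 2 droplet libraries (PBS, cmExoaCD11b), with 3 mice pooled in each. The authors deposited raw UMI counts per gene and barcode, empty droplets included. The file headers name Cell Ranger 7.1.0, and the study's methods name another version. The genome build of the counts is not given in the sources used here. Library totals were 67143628 and 81288480 UMIs.

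Barcodes were called as cells by a ranked cut-off on UMIs, or with at least 500 UMIs by a multinomial test against empty droplets (10000 simulations, false discovery rate 0.01). Called cells were required to show 200 genes or more and a mitochondrial share of no more than 20%, and those with the highest Scrublet scores were removed at 0.8% per 1000 cells, because the automatic threshold marked 0. The study removed clusters low in Gapdh and Eno1, which was not done here. Classes and stages were gated on marker UMIs. Expression was the summed UMIs as CPM with exact Poisson intervals, and ratios had exact conditional intervals. No test between treatments was run. A further allele of the mouse from which the tumor line came is not reported here. Genes were mostly named with values where they had at least 50 UMIs over both libraries in a class. Those past 1.5-fold with an interval excluding 1 came first, but not all of these are given with values. Aldoa is listed under 2 identifiers, of which ENSMUSG00000030695 was used. Calls were tested on simulated counts. The genes and lists were chosen with earlier results of these data known. Python 3.11.15, scanpy 1.11.5, numpy 2.4.6, scipy 1.17.1, scikit-learn 1.9.0 and pandas 2.3.3 were used.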

Additional observations from a re-analysis of the deposited data

Results flagged for a closer look

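Among neutrophils, macrophages, monocytes, T cells and B cells, Hk2 and Slc2a3 differed between the libraries in opposite directions. Each did so by at least 1.5-fold with an interval that excluded 1. Outside these classes Slc2a1 was higher in dendritic cells, and Ero1l and Pdk1 in epithelial cells, while each was lower in neutrophils and monocytes. The ratio of cmExoaCD11b to PBS for Hk2 was 2.11 in B cells, 0.538 in neutrophils and 0.660 in T cells. That for Slc2a3 was 1.92 in monocytes and 0.538 in B cells. With 1 library per treatment, the difference between the classes was not tested for any of these genes.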

How the results depend on the processing

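Of the counts recomputed under alternatives listed beforehand, 107 stayed within 1.5 times of the reported value and 21 moved further, and of those added after the data had been seen 1 and 3 did so. Counting a fold of 2 gave 15 lower genes in neutrophils (23 at 1.5-fold), 2 in macrophages (20), 10 in monocytes (20), 3 in T cells (14) and 1 in B cells (7), and 0 higher genes in macrophages and monocytes (1 each). The ranked cut-off alone gave 11 lower genes in neutrophils, 5 lower and 1 higher in T cells, and 0 higher in macrophages. Holding the neutrophil stages at the PBS mix gave 5. The higher gene of macrophages was also lost without doublet removal, under median-ratio scaling and with equal weight per cell (0 each), and that of monocytes with equal weight per cell (0). A minimum of 10 UMIs gave 1 higher gene in T cells, Hk3, whose level in PBS was not above free RNA. In B cells the lower genes numbered 4 under median-ratio scaling and with equal weight per cell, 13 without mitochondrial and ribosomal genes, and 12 with a minimum of 10 UMIs. For the split by Vegfa, 12 higher genes in PBS became 28 when split by Hilpda and 2 in inflammatory cells alone, and 20 in cmExoaCD11b became 9 in inflammatory cells alone. Shares of all genes are given above only for the fold of 2, the PBS mix of stages and inflammatory cells alone. The counts under the other alternatives therefore have no background beside them. The causes of these changes were not tested beyond what each alternative changes by construction. Median ratios of all genes were off 1 by more than 0.1 on the log2 scale in B cells (-0.14), epithelial cells (-0.11), immature (0.17), mature (0.13) and inflammatory neutrophils (-0.15). No paired analysis was possible because each treatment has 1 library from different mice. Depth limits dendritic and NK cells most, and intervals and the upper limits for 0 UMIs cover counting error only.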

Other observations

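Macrophages were also divided by Arg1, a split chosen after the data had been seen, with cells thinned to 1000 UMIs. In PBS, 165 macrophages had an Arg1 UMI and 164 did not. Gapdh was at 4024 CPM in the former and 1768 CPM in the latter, a ratio of 2.28 (1.98 to 2.62). Pgk1 was at 958 and 256 CPM, a ratio of 3.74 (2.65 to 5.39), and Aldoa had a ratio of 2.65 (2.05 to 3.46). Hilpda was at 970 and 1250.0 CPM, a ratio of 0.776 (0.627 to 0.959), and Vegfa at 497 and 488 CPM. Ldha was at 1224 and 1091 CPM, and Hk2 at 182 and 213 CPM, genes that were chosen after their values had been seen. In cmExoaCD11b, with 26 and 56 cells, Gapdh was at 4115 and 1107 CPM, a ratio of 3.72. Neither a count over the list nor the share of all genes is given for this split, so these ratios have no background beside them. Arg1 itself was at 3546 CPM in the macrophages of PBS and 1419 CPM in those of cmExoaCD11b, and its part in the ratios between the libraries was not tested.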
